A study of Homo sapiens with 12 samples.

Results

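The mitochondrial ribosomal protein genes were taken by name: all protein-coding genes whose symbol is MRPL or MRPS followed by a number, with or without a letter. The rule found 78 of the 57500 genes in the count tables, 49 named MRPL and 29 named MRPS, and no expression value was used to choose them. By the place of the protein in the human mitochondrial ribosome, 51 belong to the large subunit and 26 to the small subunit. MRPS30 and MRPS18A carry small subunit names but sit in the large subunit, and they were counted there. MRPS36 was put in neither subunit, because RefSeq now names it KGD4, a component of the α-ketoglutarate dehydrogenase complex.

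The mitochondrial ribosome, or mitoribosome, is the organelle's own translation machine. Its RNAs come from the mitochondrial genome, while all of its proteins are encoded in the nucleus, made in the cytosol and imported. It translates only the mRNAs of the mitochondrial genome, which encode core subunits of the respiratory chain and of ATP synthase. The small subunit binds the mRNA and decodes it, and the large subunit joins the amino acids and releases the chain next to the inner membrane. Some of its proteins have bacterial homologues and others arose in the mitochondrial lineage.

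RNA was measured in THP-1 cells, a human line from a monocytic leukaemia, after lentiviral transduction with a non-target shRNA, which all groups carry. Cells in buffered medium were held for 4 h at 5% CO2 (the usual culture level) or 10% CO2 (hypercapnia), and LPS, a bacterial lipopolysaccharide, was given at 2.5 µg/ml to some of them for the last 2 h. This made 4 groups of 3 poly(A)-selected RNA-seq libraries, always given here in the order 5% CO2, 10% CO2, then the same 2 levels under LPS. The libraries held 17.1 to 22.2 M gene counts. The labels do not say that the replicates were separate cultures, so a p-value here stands for the spread between libraries, which may be technical. Of 12 monocyte markers, CEBPA (743 CPM at 5% CO2), SPI1 (302 CPM) and CSF1R (112 CPM) were well detected, CD14 (10.9 CPM) was low and CD68 (1.5 CPM) was near absent. CEBPA and CSF1R were lower at 10% CO2 with LPS than at 5% CO2 with LPS (log2 change −0.88 with an edgeR adjusted p of 0.0145, and −0.62 with 0.0423), and they were the only ones of the 12 that edgeR called there. Of the 12 changes, 3 were above 0, and DESeq2 called 1 marker higher and 2 lower. Of 13 markers of other cell types, 10 did not reach the level needed for testing, and their group means were at most 0.222 CPM, with MS4A1 listed at 0 in 3 groups. The other three were PECAM1, at 244 to 344 CPM, and COL1A1 and CD79A, at no more than 2.01 CPM in any group mean.

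All 78 genes passed the filter on low counts, which kept 16402 genes. The lowest count of any of them in a library was 74. Levels are given in CPM (counts scaled to a library of 1 M, TMM-normalized), as mean ± SD of 3 libraries. Changes are log2 differences from edgeR's quasi-likelihood fit with their standard error (SE), and a gene is said to rise or fall only where its Benjamini-Hochberg adjusted p over all 16402 genes was under 0.05. In bulk RNA, fewer cells of a kind and less RNA per cell cannot be told apart.

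Promoter windows (250 bases before to 50 bases after each start) were matched in RefSeq's GRCh38.p14 table for 70 of the 78 genes, giving 86 windows. Stretches upstream of 4 genes that were higher at 10% CO2 are shown here to let the letters be read beside the values. Each lies within 150 bases of the RefSeq start and outside coding-gene exons, runs 5′ to 3′ on the strand of the gene, and has in capitals any letters of the ETS, NRF1, YY1 and ZNF143 motifs described below. The other motifs searched, GGGCGG among them, were not marked. They are MRPL3 (chr3:131502984-131503121, minus strand), MRPL17 (chr11:6683402-6683490, minus strand), MRPL24 (chr1:156741132-156741179, minus strand, inside an intron of a longer annotated MRPL24 transcript) and MRPS14 (chr1:175023426-175023575, minus strand).
MRPL3: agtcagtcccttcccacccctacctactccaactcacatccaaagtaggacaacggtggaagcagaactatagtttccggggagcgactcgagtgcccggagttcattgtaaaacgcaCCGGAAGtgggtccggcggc
MRPL17: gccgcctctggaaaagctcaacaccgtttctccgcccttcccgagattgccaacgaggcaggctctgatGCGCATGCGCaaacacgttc
MRPL24: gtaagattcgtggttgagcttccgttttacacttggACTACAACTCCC
MRPS14: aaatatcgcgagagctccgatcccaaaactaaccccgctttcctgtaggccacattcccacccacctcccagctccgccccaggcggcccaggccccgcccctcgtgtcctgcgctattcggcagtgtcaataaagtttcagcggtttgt
The capitals in MRPL3 are CCGGAAG, the core read by ETS factors, 32 bases before the start. Those in MRPL17 are GCGCATG on both strands, overlapping each other 81 and 78 bases before the start, which is the core read by NRF1, a regulator of nuclear genes for mitochondria. Those in MRPL24 match the ZNF143 motif, 55 bases before the start, which was added to the search after this sequence had been read. The MRPS14 stretch held none of these 3 motifs and no AAGATGGC.

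Over whole windows and both strands, CCGGAAG was in 38.4% of the 86 windows of these genes and in 12.8% of all 22199 protein-coding windows. AAGATGGC, the core read by YY1, was in 26.7% against 3.5%. GCGCATG was in 8.1% against 5.3%, CCAAT in 32.6% against 34.7%, CACGTG in 11.6% against 8.3%, GGGCGG in 60.5% against 56.3% and the ZNF143 motif in 2.3% against 1.3%. Among motifs of stress and inflammatory regulators, TGATGCAA (ATF4) was in 0% against 0.7%, GAANNTTC (heat shock factors) in 8.1% against 5.7%, and an NF-κB motif in 5.8% against 7.6%. The genes that rose with CO2, described below, held the common motifs in these shares: of those with a window, 7 of 21 held CCGGAAG and 3 of 21 held AAGATGGC, against 23 of 49 and 18 of 49 of the genes that were not called. These are counts of letters, not of bound sites.

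Levels differed widely among the genes. Mean CPM over the 12 libraries ran from 4.72 for MRPL53 to 250.9 for MRPL37, with a median of 37.1. Per kilobase of exon, the highest levels were those of MRPL37 (98.4 CPM per kb), MRPL18 (83.1), MRPS34 (72.3), MRPL3 (60.1) and MRPL15 (57.6). The lowest were those of MRPL46 (1.95 CPM per kb), MRPL53 (3.51), MRPL42 (3.61), MRPL38 (3.71) and MRPS11 (4.35), so the range spanned 50.5-fold although most of these proteins are present once in each ribosome. Annotated exon length sets part of such a ratio. Replicates were close, with a median coefficient of variation of 5.5%, 7.6%, 6.8% and 4.8% in the 4 groups. MRPL37, the most abundant, was level across the groups, at 233 ± 20.2, 242 ± 28.9, 261 ± 22.6 and 268 ± 16.3 CPM (SD, n = 3), and passed no test.

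**Figure D1:**
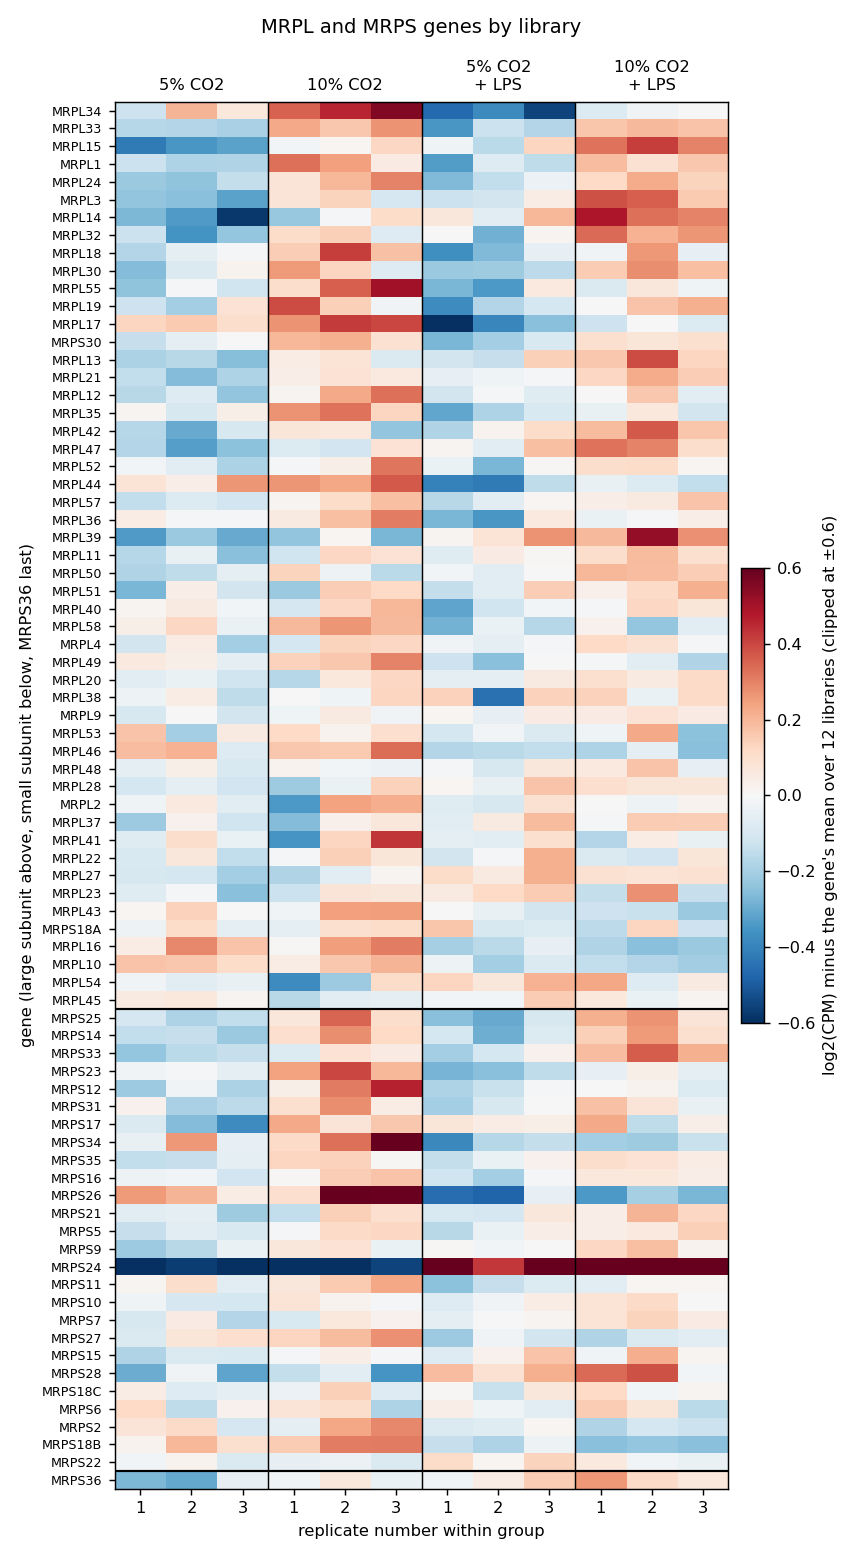
Level of each of the 78 genes in each of the 12 libraries, as log2 CPM minus the mean of that gene over the 12 libraries (colour, clipped at ±0.6), with genes in rows and libraries in columns by group. Rows run from the largest to the smallest averaged CO2 change within each subunit; the upper rows are bluer in the 5% CO2 columns and redder in the 10% CO2 columns, and MRPS24 stands out by its LPS difference.

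The first comparison asks what 10% CO2 did to these genes. Summed over the 78 genes, the libraries at 5% CO2 held 3242.0, 3385.6 and 3244.6 CPM and those at 10% CO2 held 3508.7, 3842.1 and 3806.3 CPM. With LPS the sums were 3230.2, 3275.0 and 3573.6 CPM at 5% CO2 and 3682.4, 3807.1 and 3623.8 CPM at 10% CO2. Every 10% CO2 library lay above every 5% CO2 library at the same LPS state, and the means were 13% higher without LPS and 10.3% higher with it. The large subunit sum went from 2256.7 ± 55.3 to 2548.3 ± 127.4 CPM without LPS and from 2315.0 ± 140.2 to 2582.9 ± 67.7 CPM with it. The small subunit sum went from 1017.6 ± 30.3 to 1151.8 ± 55.3 CPM without LPS and from 1024.9 ± 45.5 to 1100.5 ± 26.5 CPM with it. Both subunits moved in the same direction. The share of counts from mitochondrial genome genes also moved with CO2, from 1.573 ± 0.341% to 2.656 ± 0.563% without LPS and from 1.553 ± 0.25% to 3.114 ± 0.95% with it, and its part in the result was not tested beyond scaling the libraries without those genes, which left 3 and 13 of the 78 genes called without and with LPS, as with all genes.

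**Figure D2:**
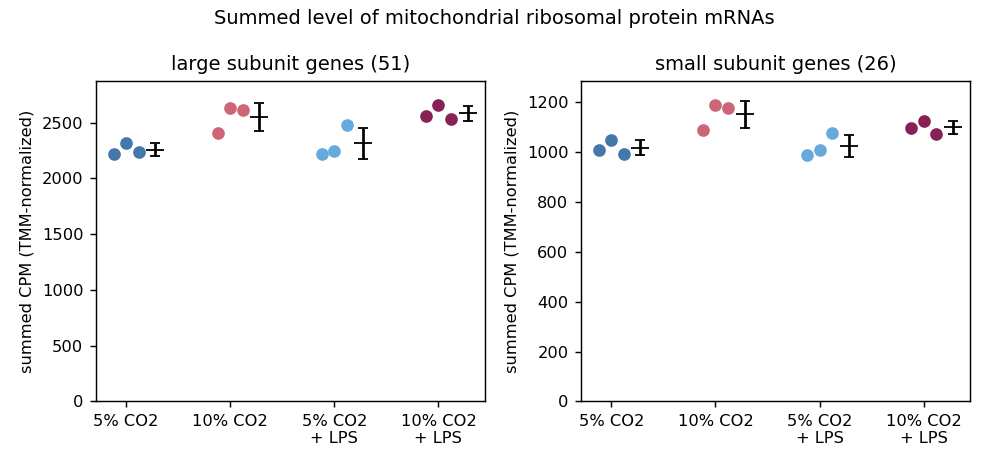
Summed TMM-normalized CPM of the 51 large subunit genes (left) and the 26 small subunit genes (right) in each library, by group; points are libraries and bars are mean ± SD of 3. The points at 10% CO2 lie above those at 5% CO2 in both LPS states for the large subunit, and for the small subunit the highest 5% CO2 library with LPS (1076.5 CPM) overlaps the lowest 10% CO2 library with LPS (1074.5 CPM).

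Without LPS, 3 of the 78 genes rose at 10% CO2 and 0 fell, against 0.799% of all genes tested that rose and 0.665% that fell (1.46% either way). They were MRPL15, MRPL33 and MRPL24, all of the large subunit. DESeq2 called 14 of the 78 higher (3.46% of all genes with an adjusted p), and edgeR with a correction for GC content called 16 (3.24% of all genes). Of falls, DESeq2 also called 0, and 0 had an unadjusted p under 0.05 in edgeR, in this and in the next 2 CO2 comparisons. The log2 change was above 0 in 73 of the 78 genes, with a median of 0.17, while 48.0% of all genes were above 0 with a median of −0.01. The groups did not overlap, with 10% CO2 higher, in 37 genes, and with 10% CO2 lower in 1 (MRPL45), against 10.5% and 10.2% of all genes.

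With LPS present in both groups, 13 genes rose at 10% CO2 and 0 fell, against 4.29% and 4.46% of all genes tested (8.75% either way). DESeq2 called 14 higher (7.16% of all genes with an adjusted p). Of the 13, 10 belong to the large subunit (MRPL1, MRPL3, MRPL15, MRPL17, MRPL24, MRPL30, MRPL32, MRPL33, MRPL34 and MRPS30) and 3 to the small subunit (MRPS14, MRPS25 and MRPS33). With the GC correction MRPL1, MRPL32, MRPS14, MRPS30 and MRPS33 lost their calls, and the others of the 13 kept theirs. Over all alternatives, MRPS14 lost its call in 13 of 20, MRPL1 in 12 and MRPL32 in 11. The change was above 0 in 63 genes with a median of 0.12, against 48.9% of all genes and a median of −0.01. The groups did not overlap in 33 genes with 10% CO2 higher and in 3 with it lower (MRPL43, MRPS2 and MRPS18B), against 16.2% and 15.2% of all genes.

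The 2 CO2 comparisons share no library, but both were read from 1 fit with the same estimate of spread for each gene. Their calls are therefore not independent. All 3 genes called without LPS were among the 13 called with it, where 0.561% of all genes were called higher in both. In 62 genes the change was above 0 in both comparisons and in 4 (MRPL10, MRPL45, MRPL54 and MRPS22) it was below 0 in both. In 22 genes the 10% CO2 libraries lay above all 5% CO2 libraries at both LPS states and in 0 genes below, against 4.96% and 4.45% of all genes.

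**Figure D3:**
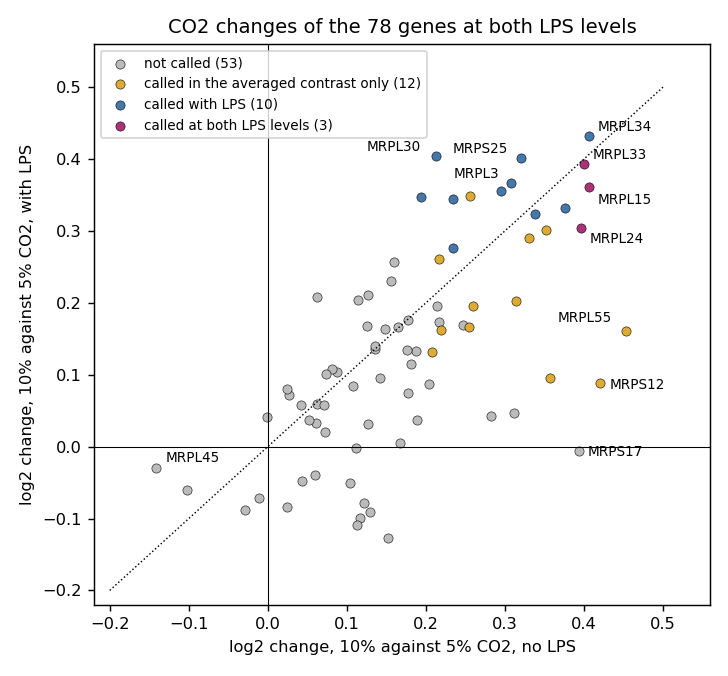
Log2 change from 5% to 10% CO2 without LPS (horizontal) and with LPS (vertical) for each of the 78 genes, coloured by where the gene was called; the dotted line marks equal changes. Most points (62) lie at the upper right, where both changes are above 0.

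MRPL33 (chr2:27771717-27988087 on GRCh38) encodes a small large-subunit protein with a bacterial homologue. Its level was 24.0, 24.0 and 23.7 CPM at 5% CO2 and 31.8, 30.3 and 32.6 CPM at 10% CO2. With LPS it was 21.3, 24.8 and 24.0 CPM at 5% CO2 and 30.4, 31.0 and 30.5 CPM at 10% CO2. All 10% CO2 libraries were above all 5% CO2 libraries, and LPS made little difference. The log2 change was 0.40 ± 0.09 (SE) without LPS, with an edgeR adjusted p of 0.037, and 0.39 ± 0.09 with LPS, with an adjusted p of 0.015. Its annotated exons share 21.1% of their bases with BABAM2, a more abundant gene on the same strand, so some reads could not be assigned with certainty.

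MRPL15 encodes a large subunit protein homologous to one that binds the core of the large rRNA in bacteria. It measured 50.3, 52.9 and 53.9 CPM at 5% CO2 and 66.7, 68.1 and 73.5 CPM at 10% CO2. With LPS it measured 66.3, 60.3 and 73.8 CPM at 5% CO2 and 84.5, 89.9 and 83.0 CPM at 10% CO2. The gene rose with CO2 by 0.41 ± 0.09 without LPS (edgeR adjusted p = 0.0325) and by 0.36 ± 0.09 with it (0.0187). It also rose with LPS, by 0.35 ± 0.09 at 5% CO2 (0.00658) and 0.31 ± 0.09 at 10% CO2 (0.0111), and was lowest at 5% CO2 and highest at 10% CO2 with LPS. It shares no exon base with another annotated gene.

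MRPL24 (chr1:156737303-156741590), whose bacterial homologue starts assembly of the large subunit and lines the exit of the peptide tunnel, measured 41.9, 41.5 and 44.4 CPM at 5% CO2 and 51.7, 56.3 and 60.3 CPM at 10% CO2. With LPS it measured 40.8, 44.3 and 47.8 CPM against 53.3, 57.1 and 53.8 CPM. Again no 10% CO2 library fell into the 5% CO2 range. The changes were 0.40 ± 0.09 (edgeR adjusted p = 0.0382) and 0.30 ± 0.09 (0.045), and the upstream stretch printed above holds the ZNF143 letters.

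MRPL3 (chr3:131462212-131502983), the homologue of a bacterial protein that reaches to the peptidyl transferase centre, was among the most abundant members. It measured 137, 135 and 129 CPM at 5% CO2 and 170, 177 and 150 CPM at 10% CO2, and with LPS 147, 149 and 166 CPM against 210, 207 and 180 CPM, with no overlap in either state. The change passed the test with LPS (0.37 ± 0.09, edgeR adjusted p = 0.0158) and was 0.31 ± 0.09 with an adjusted p of 0.0774 without it.

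MRPL34 (chr19:17292609-17306843), another short protein with a bacterial homologue, moved with both treatments in opposite directions. It measured 19.4, 24.4 and 22.1 CPM at 5% CO2 and 27.1, 29.1 and 31.1 CPM at 10% CO2, and with LPS 15.3, 16.2 and 14.4 CPM against 20.0, 20.9 and 21.1 CPM. With LPS it rose with CO2 by 0.43 ± 0.11 (edgeR adjusted p = 0.0213), and without LPS the change was 0.41 ± 0.10 with an adjusted p of 0.0591. LPS lowered it at both CO2 levels, by log2 changes of −0.52 ± 0.11 (0.00134) and −0.49 ± 0.11 (0.00118). Its exons share 13.2% of their bases with ABHD8 on the opposite strand.

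MRPL17 (chr11:6680782-6683401), the carrier of the NRF1 letters printed above, followed the same pattern as MRPL34. It measured 51.7, 52.6 and 50.8 CPM at 5% CO2, 56.9, 63.3 and 62.3 CPM at 10% CO2, and with LPS 30.6, 36.0 and 39.8 CPM against 43.3, 47.2 and 44.6 CPM. The CO2 change was 0.34 ± 0.10 with LPS (edgeR adjusted p = 0.0364) and 0.23 ± 0.10 without it (0.218). The LPS change was −0.55 ± 0.10 at 5% CO2 (0.000349) and −0.43 ± 0.10 at 10% CO2 (0.00171).

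The other large subunit genes called with LPS were MRPL30 (log2 change 0.40), MRPL32 (0.36), MRPL1 (0.33) and MRPS30 (0.28). MRPL32 is cut by the m-AAA protease before it enters the ribosome, and MRPL1 builds the flexible stalk near the exit site for tRNA. MRPL30 was at 32.3 ± 0.821 CPM at 5% CO2 with LPS and at 42.7 ± 2.01 CPM at 10% CO2 with LPS, with no overlap. Their adjusted p-values lay between 0.022 (MRPL30) and 0.0499 (MRPL1), close to the threshold for the weakest.

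Of the small subunit, MRPS25 (chr3:15042460-15065335), a protein of the mitochondrial lineage, had the largest CO2 change with LPS among the called. It measured 38.4, 36.2 and 37.2 CPM at 5% CO2 and 43.1, 52.3 and 44.3 CPM at 10% CO2, and with LPS 34.6, 33.3 and 38.5 CPM against 47.7, 49.6 and 43.4 CPM, again without overlap. The change was 0.40 ± 0.10 with LPS (edgeR adjusted p = 0.0192) and 0.32 ± 0.10 without it (0.103), and 22.2% of its exon bases lie opposite NR2C2. MRPS14 (chr1:175010789-175023425), the homologue of a bacterial protein of the small subunit head, was at 23.0 ± 1.79 and 28.8 ± 1.64 CPM with LPS (0.32 ± 0.10, adjusted p = 0.0479), and 13.5% of its exon bases lie opposite the much more abundant CACYBP. MRPS33 was at 24.0 ± 1.93 and 30.6 ± 2.11 CPM with LPS (0.35 ± 0.10, adjusted p = 0.036).

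The calls of the 2 separate comparisons rest on few libraries. Without LPS, the count of 3 fell to 0 when any of the 3 libraries at 5% CO2 or replicate 2 at 10% CO2 was left out. It fell to 1 without replicate 3 at 10% CO2 with LPS, and rose to 9 without replicate 1 at 10% CO2. Without replicate 3 at 10% CO2 it was 2, but MRPL15, MRPL24 and MRPL33 all lost their calls there, so these 2 were other genes. Of 20 alternatives, MRPL24 and MRPL33 each lost the call in 7 and MRPL15 in 6. With LPS, the count of 13 fell to 0 without replicate 1 at 5% CO2 with LPS or replicate 2 at 10% CO2 with LPS, to 2 without replicate 2 at 5% CO2 with LPS, to 5 without replicate 1 or 3 at 10% CO2 with LPS and to 7 without replicate 2 at 10% CO2.

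Averaged over both LPS states, which uses all 12 libraries, 25 genes rose at 10% CO2 and 0 fell, against 8.06% and 8.69% of all genes tested. The change was above 0 in 72 genes (92.3%, against 47.9% of all genes) with a median of 0.16, against −0.01 for all genes. The 12 with the smallest p were MRPL33 (0.40), MRPL15 (0.38), MRPL34 (0.42), MRPL3 (0.34), MRPL24 (0.35), MRPS25 (0.36), MRPL1 (0.35), MRPS14 (0.33), MRPS30 (0.26), MRPL30 (0.31), MRPL32 (0.33) and MRPL14 (0.33), with edgeR adjusted p-values from 0.000759 to 0.00818. All 12 passed the test in all 19 alternatives it was run under, including each left-out library. Some others of the 25 did not. MRPS35 and MRPL57 each lost the call in 11, MRPL35 in 10, MRPL12 and MRPL13 each in 8, and MRPS12 and MRPL55 each in 7. MRPL19 and MRPL21 each lost it in 1. Of the 25, 19 are large and 6 are small subunit genes. The genes that rose had a median exonic GC content of 45.1%, against 49.8% in the other 53, and a median level of 13.5 against 13.8 CPM per kb. With a correction for GC content in each library 31 genes were called higher (11.3% of all genes), 22 of them among the 25.

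The second comparison asks what LPS did. At 5% CO2, 7 of the 78 genes rose and 6 fell, against 11.8% and 13.1% of all genes tested, and 24.9% called either way (16.7% of the 78). The median change was 0.02, against −0.01 for all genes. With the GC correction the same comparison gave 4 that rose and 11 that fell (29.5% of all genes called). The count of 13 fell to 7 without replicate 1 at 5% CO2 with LPS, and to 8 without replicate 1 or 2 at 5% CO2 or replicate 3 at 5% CO2 with LPS. The shares of all genes called in those runs are not given here. At 10% CO2, 7 rose and 18 fell, against 16.6% and 18.6% of all genes and 35.2% either way (32.1% of the 78), with a median of −0.01, against −0.02. With the GC correction 6 rose and 20 fell (37.8% of all genes called), and 18 of these 26 were among the 25. Libraries with and without LPS did not overlap in 17 genes that were higher and 12 that were lower with LPS at 5% CO2, against 18.9% and 20.4% of all genes, and in 15 and 20 genes at 10% CO2, against 21.9% and 24.2%. These shares lie near or below those of all genes, and the changes went both ways. The 2 LPS comparisons also share no library but the same fit. In both, 6 genes rose (10.6% of all genes did) and 6 fell (10.9%), and 12 fell and 1 rose at 10% CO2 without passing the test at 5% CO2. The difference between the 2 LPS changes was called for none of the 78.

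MRPS24 (chr7:43866558-43869893), whose bacterial homologue guards the mRNA entry of the small subunit, had by far the largest LPS change. It measured 9.71, 12.3 and 10.7 CPM at 5% CO2 and 30.3, 24.4 and 28.4 CPM at 5% CO2 with LPS. At 10% CO2 it measured 11.5, 11.7 and 12.4 CPM without and 32.5, 31.1 and 29.8 CPM with LPS. LPS and untreated libraries lay far apart, with log2 changes of 1.35 ± 0.12 (edgeR adjusted p = 3.28e-08) and 1.39 ± 0.11 (1.31e-08). Its CO2 changes were 0.12 and 0.17 and passed no test. The gene shares 23.2% of its exon bases with URGCP-MRPS24, a readthrough gene that had a median count of 0.

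The other genes that rose with LPS at both CO2 levels were MRPL14, MRPL15, MRPL39, MRPL47 and MRPS28, by 0.28 to 0.50. With the GC correction MRPL47 and MRPS28 were called at neither level and MRPL15 not at 10% CO2, and MRPL47 was down to 0.19 at 5% CO2 and 0.055 at 10% CO2 (edgeR adjusted p = 0.206 and 0.73). MRPL14, which faces the small subunit and is bound by the silencing factor MALSU1, measured 43.8, 41.8 and 35.4 CPM at 5% CO2 and 55.3, 50.5 and 60.6 CPM at 5% CO2 with LPS. At 10% CO2 it measured 45, 52.4 and 56.9 CPM without and 73.8, 66.3 and 65.0 CPM with LPS. There was no overlap at either CO2 level (0.46 ± 0.11, edgeR adjusted p = 0.00386, and 0.41 ± 0.11, 0.00599). MRPL39 went from 19.6 ± 0.833 to 26.1 ± 2.43 CPM at 5% CO2 and from 21.4 ± 2.34 to 30.2 ± 3.75 CPM at 10% CO2. MRPL27, the homologue of a bacterial protein at the peptidyl transferase centre, rose at 5% CO2 (0.26), and MRPL3 rose at 10% CO2 (0.26). MRPL27 lost its call in 11 of 20 alternatives, and with the GC correction the MRPL3 change was 0.10 (edgeR adjusted p = 0.359).

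The genes that fell with LPS at both CO2 levels were MRPL10, MRPL16, MRPL17, MRPL34, MRPL44 and MRPS26. At 5% CO2 MRPL10 lost its call in 15 of 20 alternatives, DESeq2 among them, MRPL16 in 5 and MRPS26 in 4, while MRPL17, MRPL34 and MRPL44 lost theirs in 0. MRPL44, which has a fold like that of RNase III, measured 40.2, 39.1 and 45.8 CPM at 5% CO2 and 28.7, 28.4 and 34.2 CPM at 5% CO2 with LPS. At 10% CO2 it measured 45.6, 44.7 and 49.0 CPM without and 36.9, 35.9 and 34.4 CPM with LPS. All LPS libraries lay below (−0.45 ± 0.10, edgeR adjusted p = 0.00202, and −0.38 ± 0.10, 0.00542). MRPS26, a small subunit protein of the mitochondrial lineage, measured 15.5, 15.0 and 13.4 CPM at 5% CO2 and 9.46, 9.30 and 12.5 CPM at 5% CO2 with LPS. At 10% CO2 it measured 13.9, 19.9 and 19.6 CPM without and 10.2, 11.3 and 10.7 CPM with LPS, the largest fall of the 78 genes (−0.73 ± 0.15, adjusted p = 0.000792). MRPL10, which anchors the stalk that carries MRPL12, and MRPL16 fell by less, with log2 changes of −0.25 and −0.31 at 5% CO2 and −0.31 and −0.41 at 10% CO2.

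**Figure D4:**
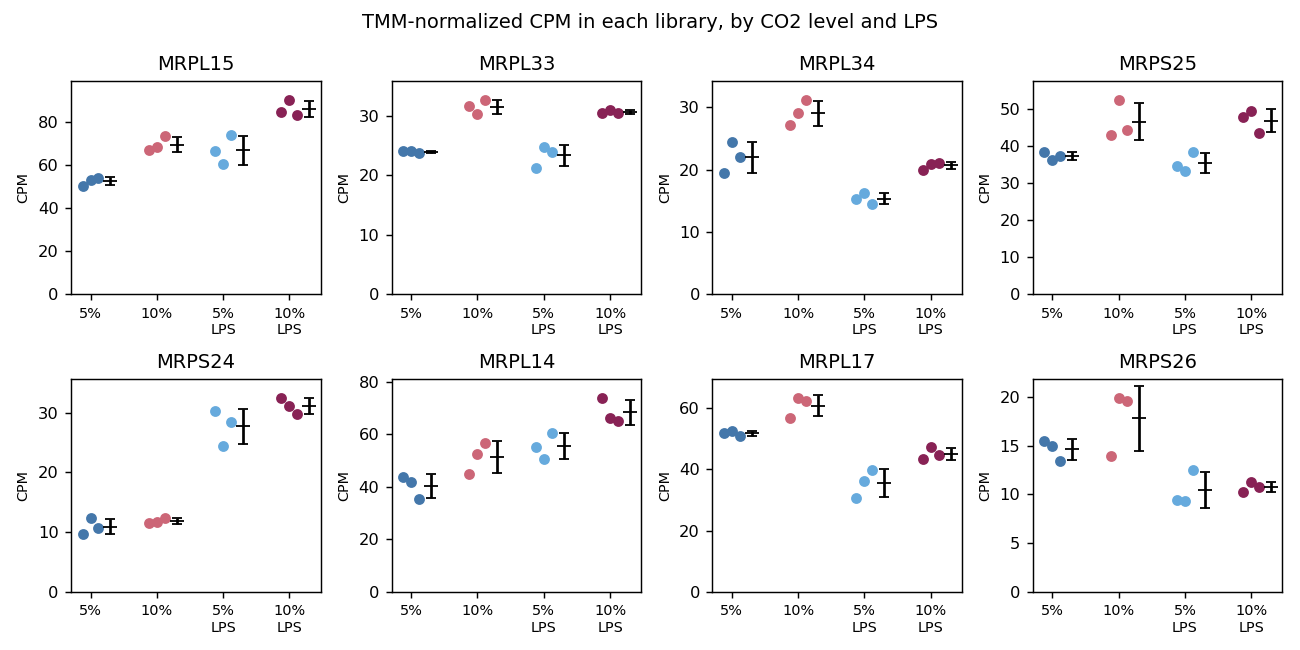
TMM-normalized CPM of 8 genes in each library by CO2 level and LPS; points are libraries and bars are mean ± SD of 3, and each panel starts at 0. MRPL33 separates by CO2 alone, MRPS24 by LPS alone (10.9 and 11.8 CPM without and 27.7 and 31.1 CPM with LPS), and MRPL34 and MRPL17 by both.

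Of the 12 genes called lower with LPS at 10% CO2 and not at 5% CO2, those with the smallest p were MRPS18B (−0.50), MRPS34 (−0.56) and MRPS23 (−0.31). At 5% CO2 their changes were −0.22, −0.29 and −0.20, also with all LPS libraries below (edgeR adjusted p = 0.117, 0.0823 and 0.115). MRPS34, whose loss destabilizes the small subunit, was at 81.4 ± 10.3, 101 ± 18.5, 66.4 ± 6.06 and 68.6 ± 2.04 CPM in the 4 groups. MRPS23 rose with CO2 averaged over LPS (0.26) and fell with LPS at 10% CO2.

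The interaction, the LPS change at 10% CO2 minus that at 5% CO2, was called for 0 of the 78 genes by edgeR and 0 by DESeq2, against 0.0244% and 0.384% of all genes, and 2 genes had an unadjusted p under 0.05. The 3 with the smallest p were small subunit genes and none was called: MRPS17 (−0.40), MRPS12 (−0.33) and MRPS18B (−0.28), with adjusted p-values of 0.788, 0.8 and 0.845. MRPS12, the homologue of a bacterial protein of the decoding centre, measured 31.4, 35.9 and 32.0 CPM at 5% CO2 and 37.4, 45.3 and 50.2 CPM at 10% CO2, but 32.0, 33.2 and 36.2 CPM and 36.5, 37.0 and 34.5 CPM with LPS. The CO2 groups did not overlap without LPS and overlapped with it.

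Whether the 2 subunits differ was not tested, and their values stand here side by side. Without LPS the median CO2 change was 0.16 in the large and 0.17 in the small subunit, with 3 of 51 and 0 of 26 genes called higher, against 0.799% of all genes. With LPS it was 0.16 and 0.09, with 10 of 51 and 3 of 26 called higher, against 4.29%. Averaged it was 0.16 and 0.15, with 19 of 51 and 6 of 26, against 8.06%. The summed large to small ratio was 2.22 ± 0.0328, 2.21 ± 0.0076, 2.26 ± 0.0371 and 2.35 ± 0.0162 in the 4 groups. The 3 libraries of the last group (2.33, 2.36 and 2.35) lay above the other 9 (at most 2.30). With LPS at 10% CO2, 5 large subunit genes rose and 11 fell, and 2 small subunit genes rose and 7 fell. The called shares, 31.4% of the large and 34.6% of the small subunit genes, lie near the 35.2% of all genes.

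Split by origin, 18 of 45 genes with a bacterial homologue and 6 of 31 of the mitochondrial lineage rose with CO2 averaged over LPS, with medians of 0.16 and 0.14, where 8.06% of all genes were called higher. With LPS at 10% CO2, 6 of the 45 rose and 7 fell, and 1 of the 31 rose and 10 fell, against 16.6% and 18.6% of all genes. Whether the 2 classes differ was not tested, and MRPL55 and MRPS36 were put in neither.

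**Figure D5:**
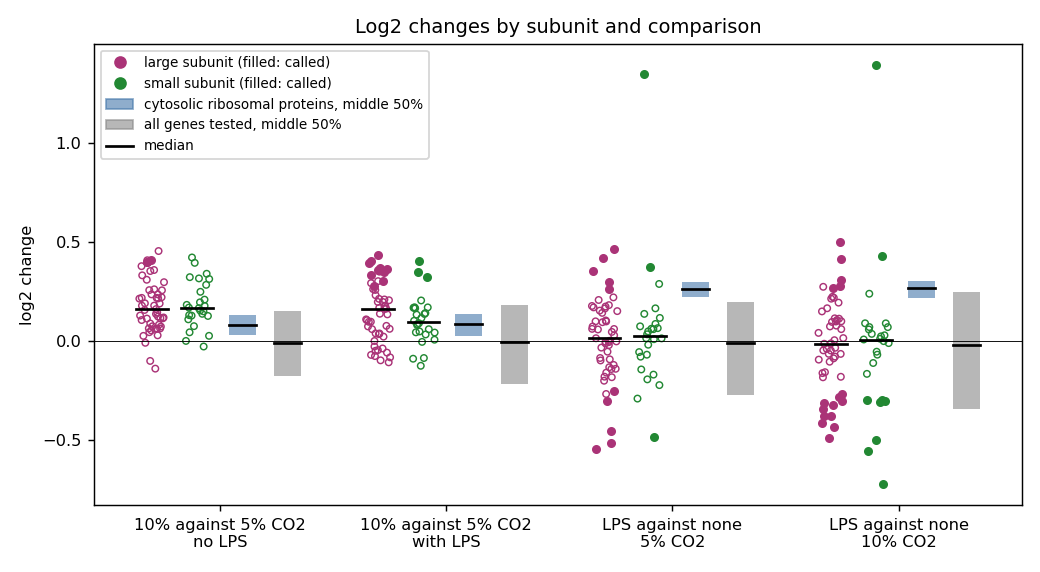
Log2 change of each large and small subunit gene (points; filled where called) in 4 comparisons, beside the middle 50% of the cytosolic ribosomal protein genes and of all genes tested (bars), with medians as black lines. Medians of both subunits lie above 0 in the CO2 comparisons and near 0 in the LPS comparisons, where the cytosolic ribosomal protein genes have medians of 0.26.

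The cytosolic ribosomal protein genes, which build the ribosome that makes the cell's other proteins, were read from the same fit. Of 86 tested, 0 were called for CO2 by edgeR in either LPS state, against 1.46% and 8.75% of all genes called either way. In edgeR 7 and 9 of them had an unadjusted p under 0.05. DESeq2 called 2 and 2 of 85 with an adjusted p, against 3.46% and 7.16% of all genes called higher. Their medians were 0.08 in both states, and 11 rose when averaged, 12.8% of them, against 8.06% of all genes. Their changes were above 0 in 83.7% without LPS and 80.2% with it, where those of the mitochondrial set were above 0 in 93.6% and 80.8%. With LPS 60 rose at 5% CO2 and 62 at 10% CO2, against 11.8% and 16.6% of all genes, with medians of 0.26 in both, where the mitochondrial set had medians of 0.02 and −0.01.

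Some members have further roles or close relatives. MRPL12, the stalk protein that also binds the mitochondrial RNA polymerase, was at 27.1 ± 1.5, 34.7 ± 3.77, 29.0 ± 1.05 and 31.0 ± 2.58 CPM in the 4 groups. It was called for CO2 only when averaged (0.23, edgeR adjusted p = 0.0391), and it lost that call in 8 of 19 alternatives. Of its exon bases, 68.2% are shared with an unnamed same-strand gene that had a median count of 0. MRPL58, a peptidyl-tRNA hydrolase related to release factors, fell with LPS at 10% CO2 (−0.30, 0.0265). Its LPS change at 5% CO2 was −0.20 and was not called. Of the 3 MRPS18 paralogues, MRPS18A and MRPS18C were level, at 36.5 to 39.0 and 26.6 to 28 CPM in group means, and MRPS18B fell with LPS at 10% CO2 from 22.7 ± 1.38 to 16 ± 0.128 CPM. The MRPS18B change with LPS at 5% CO2 was −0.22 and was not called. MRPS36, named KGD4 by RefSeq, was at 16.5 ± 1.63, 19.0 ± 0.779, 19.8 ± 1.21 and 21.0 ± 1.51 CPM in the 4 groups and passed no test.

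The mitoribosome also holds proteins outside the naming rule. DAP3, PTCD3, AURKAIP1, CHCHD1 and GADD45GIP1 all had CO2 changes above 0 in both states and 0 of 5 was called in either by edgeR or DESeq2 (3 and 1 had an unadjusted p under 0.05 in edgeR). Of all genes, edgeR called 0.799% and 4.29% higher in these states. Averaged over LPS, edgeR called 0 of the 5, against 8.06% of all genes, and their median change was 0.18. All 5 had an unadjusted p under 0.05 there in edgeR, and DESeq2 called 2 higher. DAP3, the GTP-binding protein of the small subunit, rose with LPS, from 135 ± 2.5 to 158 ± 6.41 CPM at 5% CO2 (0.22, adjusted p = 0.035) and from 147 ± 7.29 to 177 ± 5.02 CPM at 10% CO2 (0.27, 0.00677).

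Of 17 mitochondrial translation factors tested, 1 rose with CO2 without LPS, 2 rose and 1 fell with LPS, and 5 rose and 1 fell when averaged, against 1.46%, 8.75% and 16.8% of all genes called either way. MTFMT, which formylates the initiator tRNA, went from 6.49 ± 0.689 to 10.4 ± 1.1 CPM without LPS (0.69, edgeR adjusted p = 0.0202). GFM2, a factor that acts in ribosome recycling, went from 33.0 ± 2.36 to 50.3 ± 4.39 CPM with LPS (0.61, 0.00314), and GFM1, the elongation factor of translocation, from 92.4 ± 0.66 to 118 ± 3.63 CPM (0.35, 0.0187). OXA1L, which inserts chains made by the mitoribosome into the inner membrane, fell from 121 ± 5.3 to 94.1 ± 5.93 CPM (−0.36, 0.00928). In edgeR, LPS at 5% CO2 lowered 3 (MTIF3, TACO1 and MTRES1) and raised 0, which is 17.6% called against 24.9% of all genes, and at 10% CO2 it raised 5 and lowered 6, which is 64.7% against 35.2%. DESeq2, with 18 of these factors, called 2 lower and 0 higher at 5% CO2, and 5 higher and 4 lower at 10% CO2. Its shares of all genes for LPS are not given here.

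Of 30 genes for mitoribosome assembly and rRNA modification, 1 rose with CO2 without LPS, 3 with LPS and 8 when averaged, against 0.799%, 4.29% and 8.06% of all genes called higher, and 0 fell in any of these. MTERF3, which binds the mitochondrial rRNA during large subunit assembly, went from 19.2 ± 1.11 to 27.8 ± 1.37 CPM without LPS (0.54, edgeR adjusted p = 0.034) and from 16.7 ± 3.2 to 24.4 ± 1.49 CPM with it (0.55, 0.0116). MRM1, an rRNA methyltransferase, and TFB1M, which dimethylates the small rRNA, rose with LPS present (0.74 and 0.53). With LPS, 1 rose and 4 fell at 5% CO2 (NSUN4 rose by 0.38, and MIEF1 and MRM2 had changes of −0.46 and −0.43), and 1 rose and 8 fell at 10% CO2. These called shares of 16.7% and 30% are below the 24.9% and 35.2% of all genes.

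The mRNAs that the mitoribosome translates all had log2 changes above 0 for CO2 in both LPS states. How far they move together was not tested, so they do not count as 13 separate observations. The share of counts from mitochondrial genome genes ran from 2.278% to 4.147% among the 3 libraries at 10% CO2 with LPS. Of 13, 0 were called by edgeR without LPS (7 had an unadjusted p under 0.05, and DESeq2 called 4), 6 rose with LPS and 9 when averaged (4.29% and 8.06% of all genes), with median changes of 0.68 and 1.06 in the 2 states. MT-CO1, a core subunit of complex IV, went from 3161 ± 536 to 7667 ± 2827 CPM with LPS (1.28, edgeR adjusted p = 0.0361), and MT-ND5, a core subunit of complex I, from 825 ± 99.4 to 1721 ± 453 CPM (1.06, 0.0125). The medians exceed those of the 78 ribosomal protein genes (0.17 and 0.12) in the same states. MT-CO1 without LPS was at 2815 ± 546 and 5720 ± 1509 CPM (1.02, adjusted p = 0.133).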

How the data were processed

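The authors deposited unnormalized counts of reads for each Ensembl gene, with a table for every library. Per the submitters' processing notes they come from Trimmomatic 0.36, STAR 2.5.2b and featureCounts of Subread 1.5.2 on GRCh38. How strand and multiply mapped reads were treated, and which annotation was counted, is not given in the sources used here. Overlapping genes may therefore share reads: 40 of the 78 genes share exon bases with another gene, 25 of them over 10%. Annotated pseudogenes (79, of 36 of the genes) held counts equal to 0.14% of those of the 78. Symbols from a reference table paired 40907 of 57500 identifiers (71.1%), with 99.1% of counts.

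Groups and replicate numbers came from sample titles. Replicates differed beyond sampling noise (a chi-square statistic of 8.49 to 28.2 for each degree of freedom), so all 12 libraries were kept. The 78 genes took 0.304% to 0.411% of all counts of a library. edgeR 4.0.16 in R 4.3.3 was run with filterByExpr by group, TMM and a robust quasi-likelihood F test of 1 model with 4 group means (common biological coefficient of variation 10.7%), on all genes, with Benjamini-Hochberg adjustment over 16402. In a simulation of the CO2 comparison without LPS on 16076 genes, it called 79.1% of genes changed 1.5-fold, 95.5% of those changed 2-fold and 98.5% of those changed 4-fold, with 6 false calls. Every CO2 change of the 78 genes was smaller than 1.5-fold (log2 change at most 0.45), so these shares do not hold for changes of that size. The simulated counts were drawn independently for each library, without GC trends. Alternatives were DESeq2 1.42.0, other scalings, no filter, only the compared groups, a GC correction, a replicate block, each library left out and, added after seeing the data, only the genes sharing no exon base. Promoter sequences are from RefSeq.

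The genes, the lists (monocyte and other cell markers, other mitoribosome proteins, translation factors, assembly and rRNA modification, mitochondrial mRNAs) and the rule for named genes were chosen with earlier results of these data known; 1 marker of other cells is not reported here. The rule took up to 12 called genes by p in the CO2 and 8 in the LPS comparisons, the 3 with the smallest p where none was called, the 5 highest and lowest levels per length, the MRPS18 paralogues, MRPL12 and MRPL58, and up to 3 called genes of each further list; MRPL45, MRPL43 and other exceptions to a count were named after their values were seen. Promoters of MRPL10, MRPL13, MRPL15, MRPL2, MRPL21, MRPL23, MRPL35 and MRPS28 were not matched.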

Additional observations from a re-analysis of the deposited data

How the results depend on the processing

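The direction of the CO2 result held in every alternative that was run: 0 genes fell, and the median change lay between 0.14 and 0.21 without LPS, 0.0937 and 0.1751 with LPS, and 0.14 and 0.18 averaged, over the left-out libraries. The counts did move. Calls over all genes moved too: without LPS, 0.799% of all genes rose, against 3.46% with DESeq2 and 3.24% with the GC correction. For no filter, the block and left-out libraries the share of all genes is not given here. Without LPS, 3 genes became 9 with no filter on low counts, 14 with DESeq2, 0 with only the compared groups, 16 with the GC correction, 2 of the 38 genes that share no exon base, and 0 to 9 with 1 library left out. With LPS, 13 became 6 with no filter, 7 of 38, and 0 to 14. Averaged, 25 became 15 of 38, and 17 to 29. With LPS as the treatment, 13 at 5% CO2 became 8 of 38, and 7 to 14, and 25 at 10% CO2 became 14 of 38, and 17 to 26; fewer genes were tested where 38 are counted, and otherwise the cause was not tested. The median LPS change ranged from −0.0084 to 0.0682 at 5% CO2 and from −0.0377 to 0.0175 at 10% CO2 over left-out libraries, and was −0.0584 at 10% CO2 with the GC correction; the sign of these medians is not settled. The median interaction ranged from −0.0715 to 0.0093, and 0 genes were called in any alternative.

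With the replicate number as a block, 11 genes were called without LPS, 14 with LPS, 28 averaged, and 14 and 27 for LPS at 5% and 10% CO2. The block with the GC correction called 24, 21 and 42 for CO2 and 24 for LPS at 5% CO2, with a median LPS change at 10% CO2 of −0.056. Without the shares of all genes, the counts with the block are not read as particular to these genes. Libraries of the same number correlated by −0.136 to 0.29 in their deviations over 18 pairs, 8 of them above 0.1 (median 0.098), against a median of −0.062 and 4 of 36 above 0.1 for different numbers. Of 12 libraries, 6 correlated best with one of their own number. The 3 pairs at 10% CO2 with and without LPS were all above 0.1 (0.106 to 0.251), and there the block kept all 25 calls. In each other comparison at least 1 pair was not, and the numbers were not taken to pair the samples.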
